A study of Mus musculus with 10 samples.

Results

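Ribosome biogenesis and nucleolar genes were followed in mouse blood stem and progenitor cells transduced with HOXB4 by retrovirus. The set holds 39 genes listed by name. For each, the probe set with the highest mean over all 10 arrays was used, which gave values for 38 of them, out of 18193 genes on the array with 1 symbol. Mrto4 had no probe set with that symbol alone. Because the genes were listed without a filter on their values, the 38 measured genes are described whole. The list was nevertheless chosen with earlier results of these data known.

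Ribosomes are built in the nucleolus, where RNA polymerase I copies ribosomal DNA into a long precursor RNA. Small nucleolar ribonucleoproteins (snoRNPs) guide the chemical modification and cleavage of this precursor, and separate sets of assembly factors then shape the small and the large subunit. Growing cells, including blood progenitors in cytokines, make many ribosomes, and the transcription factor MYC is known to raise many of these genes through the E-box, CACGTG.

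HOXB4, a homeodomain protein, promotes growth of blood stem cells in culture. In HOXB4-ER it is joined to an oestrogen receptor domain, so that 4-hydroxytamoxifen (TMX) holds it in the nucleus and removal of TMX inactivates it, while HOXB4const is the unmodified, always active protein. The 5 groups, each of 2 Affymetrix arrays, were HOXB4-ER cells 4 h after TMX withdrawal, HOXB4-ER cells 1 h after withdrawal, HOXB4-ER cells kept in TMX for 1 h, and HOXB4const cells without and with TMX for 1 h. All had been virally transduced as lineage-negative Sca1-positive cells, grown for 14 days in cytokines with 10 nM TMX, sorted for GFP and the lineage-negative, Sca1-positive, c-kit-positive (LSK) phenotype, and held in TMX for 12 h more before they were divided. Constitutive HOXB4 is therefore the only control for TMX itself, untransduced cells were not analysed here, and the 4 h group is set against cells at 1 h because 4 h cells kept in TMX were not analysed here. In these bulk RNA samples, fewer cells of a type and less RNA per cell cannot be told apart. The labels call the arrays biological replicates 1 and 2 without naming animals or cultures, so p-values measure the spread between these samples.

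The E-box was looked for in the promoters because MYC targets are common in this set. RefSeq promoter windows of the GRCm38.p6 assembly, from 250 bases before to 50 bases after the start, were at hand for 33 of the 39 genes (not Bop1, Fbl, Npm1, Rrp12, Rrs1 or Srm). CACGTG lay in 7 of the 33 windows (21.2%), against 8.09% of 27025 genes. The related CACGCG, read on both strands, lay in 10 (30.3%), against 10.5% of genes, while the HOX-PBX type motif TGATNNAT lay in 1, that of Nop10 (3.03%), against 10.1% of genes. The 7 stretches with CACGTG and those with CACGCG in Ppan, Nop16, Polr1c and Nop10, genes named in the results below, are shown with the motif in capitals. They were chosen once the matches were known. Pprc1, Rrp9 and Cad, also named below, have windows that hold neither CACGTG nor CACGCG. A match describes letters and not a bound site. The windows were not matched for base composition. CACGTG and CACGCG hold CG while TGATNNAT is rich in A and T, so the shares are not read as enrichment or depletion.
Imp4: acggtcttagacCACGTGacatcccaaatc
Mybbp1a: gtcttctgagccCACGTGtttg
Nle1: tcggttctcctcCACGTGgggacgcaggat
Nop2: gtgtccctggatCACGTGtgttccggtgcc
Pes1: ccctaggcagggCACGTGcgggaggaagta
Tsr1: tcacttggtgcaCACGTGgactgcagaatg
Wdr43: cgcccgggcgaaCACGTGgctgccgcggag
Ppan: agagttacgagcCGCGTGgcaccggaagtt
Nop16: ggagactattaaCACGCGgctctgagagcg
Polr1c: ccgtcgctggagCACGCGCGCGTGggaaga
Nop10: aggttgttggcgCACGCGattgaagcggcg
These stretches lie on the plus strand at chr1:34439696-34439725 (Imp4), chr11:72441355-72441376 (Mybbp1a), chr6:125131811-125131840 (Nop2), chr11:3963965-3963994 (Pes1), chr11:74898092-74898121 (Tsr1), chr17:71616220-71616249 (Wdr43), chr9:20888172-20888201 (Ppan) and chr2:112261938-112261967 (Nop10). On the minus strand they lie at chr11:82908355-82908384 (Nle1), chr13:54590029-54590058 (Nop16) and chr17:46248203-46248232 (Polr1c, where 2 matches join). Ppan carries CACGCG on the opposite strand, so it is printed as CGCGTG.

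Values are the deposited log2 signals, so that differences are log2 ratios of signal. Array medians ran between 3.96 and 5.32, the highest being HOXB4const without TMX, replicate 1. Of the LSK markers, Kit lay between 8.72 and 10.93, Cd34 between 10.78 and 11.86, Gata2 between 8.61 and 10.05, Cd48 between 10.15 and 11.40, Meis1 between 6.71 and 8.48 and Flt3 between 5.70 and 8.11 on all 10 arrays. Ly6a, which encodes Sca1, was not matched. Myeloid genes were present as well, with Mpo between 10.54 and 13.26, Cpa3 between 11.45 and 12.71 and Lyz2 between 8.71 and 13.07. The Gapdh control probe sets differed more between the 3′ and 5′ ends, as happens when RNA is broken or its copies are shortened, on replicate 2 arrays (mean 2.72 ± 1.08, SD, n = 5) than on those of replicate 1 (1.10 ± 0.26, n = 5), with p = 0.00794 in an exact two-sided permutation test. The labels do not say what the replicate numbers stand for, but they say that populations were divided between treatments. Arrays of 1 number may therefore share a population, while the test shuffles the 10 arrays as if independent. Its p does not measure the spread between independent replicates.

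The 38 genes were all brighter on average than the median probe set (4.05). Npm1, nucleophosmin, a nucleolar chaperone, was the brightest with a mean signal of 12.89, and Rrp9, a box C/D snoRNP protein that acts in making the small subunit, was the dimmest at 6.59. Signals of different probe sets are not levels per length and are not compared between genes here. The shares and medians over all genes given below include dimmer genes, so they are not a background of equally bright genes. Npm1 read 13.47 and 12.43 in HOXB4-ER cells at 4 h, 13.09 and 12.97 at 1 h without TMX, and 12.93 and 12.60 with TMX, against 13.46 and 12.66 in HOXB4const cells without TMX and 12.60 and 12.67 with TMX. Where 2 values are given for a group, they belong to its replicate 2 and its replicate 1 array. For Npm1 the 2 arrays of the 4 h group lay furthest apart, and the groups overlapped except that both HOXB4-ER arrays at 1 h without TMX lay above the 4 arrays with TMX of both constructs. Fibrillarin (Fbl), the methyltransferase of box C/D snoRNPs, read 11.56 and 11.04, 11.22 and 10.95, and 11.46 and 11.02 in the same 3 HOXB4-ER groups, against 11.19 and 11.10 in HOXB4const cells without TMX and 11.67 and 10.97 with TMX. With the probe set used, Fbl was higher on the replicate 2 array in every group, and the groups overlapped. Nucleolin (Ncl), which binds precursor ribosomal RNA, read 11.99 and 11.54, 12.21 and 12.77, and 12.01 and 12.00 in the HOXB4-ER groups, against 11.83 and 12.29 without TMX and 11.54 and 12.15 with TMX in HOXB4const cells. For Ncl both 4 h arrays lay below the 4 HOXB4-ER arrays at 1 h.

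**Figure D1:**
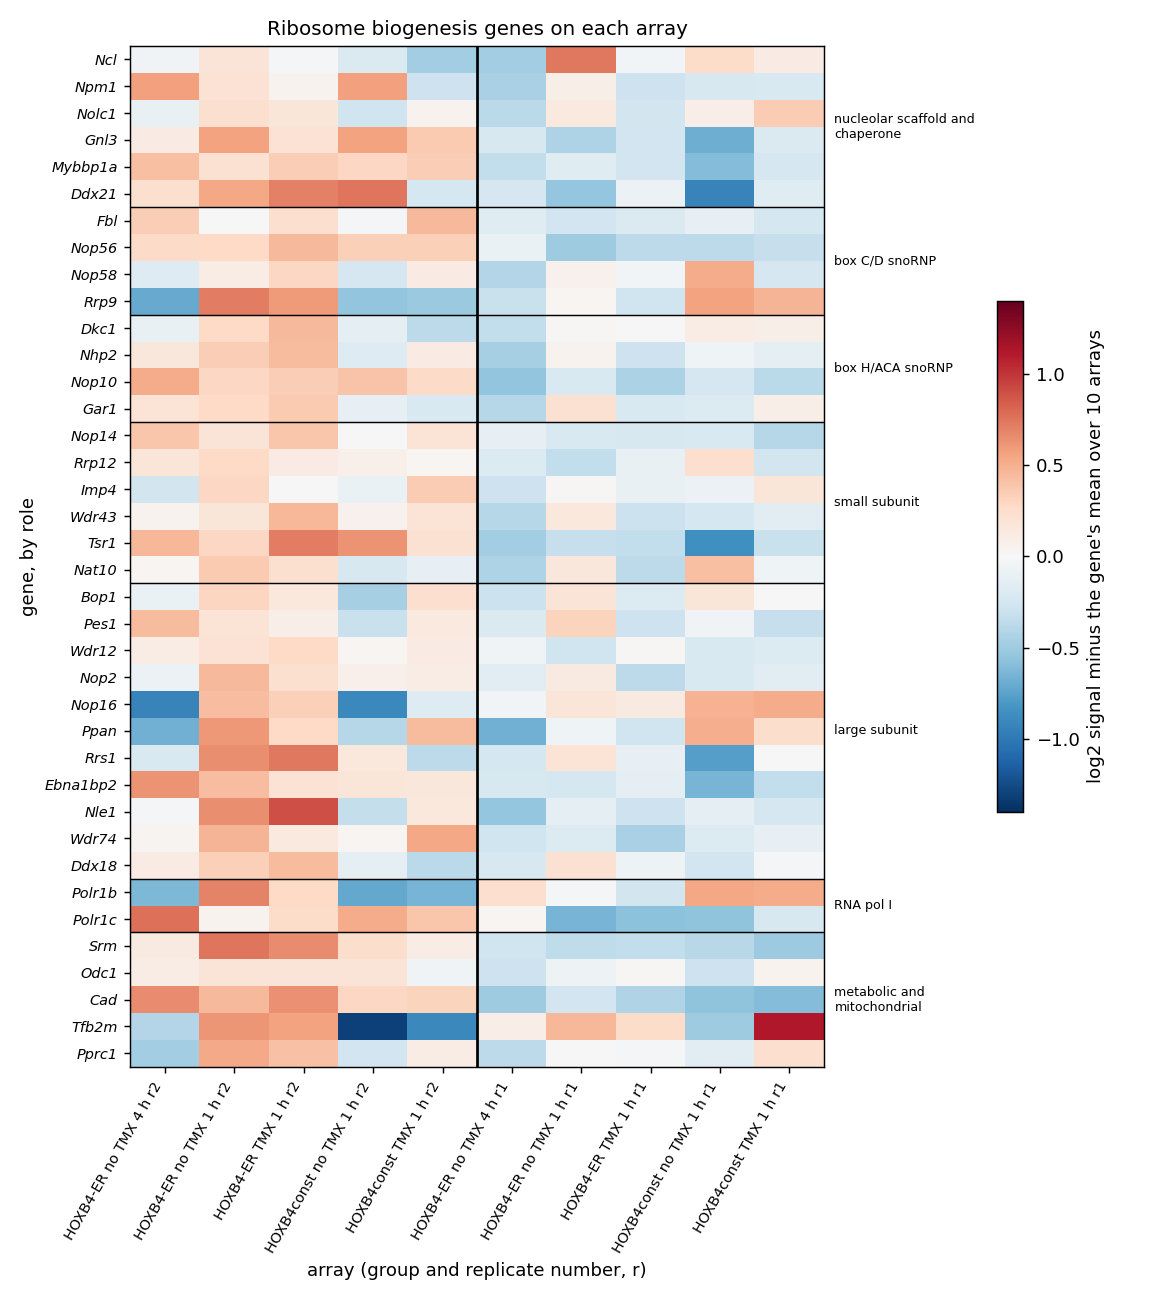
Each row is a gene, ordered by role, and each column an array, with replicate 2 arrays left of the black line and replicate 1 arrays right of it. Colour is the log2 signal minus the gene's mean over 10 arrays. Most rows are red on the left and blue on the right, and Rrp9, Nop16, Polr1b and Tfb2m stand out by their dark blue cells on replicate 2 arrays of HOXB4const cells.

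No member passed an adjusted p of 0.05 (limma without a variance trend, Benjamini-Hochberg over 45037 probe sets) in any comparison, and neither did any other probe set (0%). What follows are therefore sizes and directions, and none of the single differences is separated from the spread between replicates by this test. The median 95% interval of a member's difference between groups of 2 arrays reached 1.14 to each side. This fit therefore could not resolve a difference of 1 or less for a typical member. It does not pair arrays by replicate number, so the shift between replicate numbers counts as spread in the interval. With the number as a block in limma, 0 members reached an unadjusted p under 0.05 in the group comparisons.

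At 4 h after withdrawal most of the genes read lower. Against HOXB4-ER cells 1 h after withdrawal, 29 of the 38 genes were lower and 9 higher (53.5% of all genes were lower), with a median difference of −0.33, against −0.06 over all genes. Both 4 h arrays lay below both 1 h arrays for 17 genes, against 21.2% of all genes, and above both for 0, against 15.2% of all genes. Against HOXB4-ER cells kept in TMX, 29 were lower and 9 higher (48.3% of all genes were lower), with a median of −0.20, against 0.02 over all genes. The 4 h arrays lay below both TMX arrays for 10 genes (13.8% of all genes) and above both for 0 (15.9% of all genes). With each array's median subtracted, these counts of genes below were 1 and 3. The shares of all genes above are without this scaling, so the centred counts are not read as a result about these genes. These comparisons share the 4 h arrays, so they are not separate evidence. In the limma fit 0 members had an unadjusted p under 0.05 in either comparison, where 5.68% and 3.35% of all probe sets did. Of the markers of other cells, 6 of 7 lymphoid markers were higher at 4 h (median 0.63 against 1 h without TMX, 1.26 against TMX) and 3 of 4 erythroid markers lower (medians −0.52 and −0.40), while the 12 cell cycle genes had medians of −0.03 and −0.01. Of these lymphoid and erythroid markers, Rag1, Cd4, Cd3e, Cd79a, Hba-a1 and Klf1 were dim, with medians over 10 arrays between 1.70 and 3.88. The median probe set was at 4.05, and Ptprc, Il7r, Ighm, Epor and Tfrc were brighter. Differences of dim probe sets are uncertain. The Gapdh 3′ minus 5′ difference averaged 2.45 at 4 h, against 1.24 at 1 h without TMX and 1.39 with TMX. The part of these measures in the members' shift was not tested.

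The 4 h arrays lay below all 4 HOXB4-ER arrays at 1 h for Ncl, Nop58, Rrp9, Dkc1, Imp4, Nop16, Ppan, Rrs1, Tfb2m and Pprc1, which is 10 of 38 genes against 7.51% of all genes, and above all 4 for 0, against 7.21%. This count was added after the data were seen. Ppan, a large-subunit assembly factor, read 7.54 on both 4 h arrays, against 8.82 and 8.16 at 1 h without TMX and 8.49 and 7.93 with TMX. Its difference was −0.95 ± 0.51 from the 1 h cells without TMX (SE, limma adjusted p = 0.935) and −0.67 ± 0.51 from those with TMX. In HOXB4const cells Ppan read 7.81 and 8.72 without TMX, against 8.65 and 8.46 with TMX, so 1 array without TMX came near the 4 h values. Pprc1, a transcriptional coactivator of mitochondrial and growth genes, read 7.81 and 7.92 at 4 h, against 8.82 and 8.30 at 1 h without TMX and 8.70 and 8.28 with TMX. The differences were −0.70 ± 0.43 and −0.63 ± 0.43. In HOXB4const cells Pprc1 read 8.03 and 8.14 without TMX, against 8.40 and 8.53 with TMX (−0.38 ± 0.43), and in HOXB4-ER cells it differed by 0.07 ± 0.43 at 1 h.

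Rrp9 read 5.89 and 6.28 at 4 h, against 7.30 and 6.62 at 1 h without TMX (−0.88 ± 0.63) and 7.19 and 6.31 with TMX (−0.67 ± 0.63). The replicate 1 array at 4 h lay only just below its TMX partner. Nop16, another large-subunit factor, read 7.38 and 8.28 at 4 h, against 8.74 and 8.48 at 1 h without TMX and 8.65 and 8.44 with TMX (−0.78 and −0.72, each ± 0.62). For both genes the drop was mostly on the replicate 2 array. The 3 arrays with the largest Gapdh 3′ minus 5′ differences were replicate 2 of the 4 h group (3.47) and of HOXB4const cells without TMX (3.98) and with TMX (2.93), and these were the 3 lowest arrays of the 10 for Rrp9, Nop16 and Polr1b, a subunit of RNA polymerase I. That holds for 3 of 38 members and for 2.39% of all genes, while Polr1c, another polymerase subunit, was highest on those 3 arrays, as were 3.02% of all genes. The part of RNA quality in these 4 genes was not tested.

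Dyskerin (Dkc1), the pseudouridine synthase of box H/ACA snoRNPs, read 10.32 and 10.08 at 4 h, against 10.71 and 10.44 at 1 h without TMX and 10.88 and 10.42 with TMX. Rrs1, a large-subunit assembly factor, read 9.60 and 9.57 at 4 h, against 10.45 and 10.00 and then 10.55 and 9.70. Imp4, a small-subunit factor, read 8.34 and 8.30 at 4 h, against 8.88 and 8.62 and then 8.59 and 8.50. For these 3 genes both 4 h arrays lay below the 4 at 1 h, but the nearest arrays lay closer than the 2 replicates of the 1 h group without TMX. Polr1c went the other way, with 9.70 and 8.95 at 4 h, against 8.98 and 8.28 at 1 h without TMX and 9.18 and 8.35 with TMX (0.70 and 0.56). Its second probe set differed by −0.21 between 4 h and 1 h without TMX.

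By role, the lower direction at 4 h against 1 h without TMX was found in 4 of 4 box H/ACA genes (median −0.35), 9 of 11 large-subunit genes (median −0.41), 5 of 5 metabolic and mitochondrial growth genes (median −0.28) and 5 of 6 nucleolar scaffold genes (median −0.10). Small-subunit genes were split 3 against 3 (median −0.17), box C/D genes 2 against 2 (median −0.09) and RNA polymerase I genes 1 against 1 (median 0.08). Against TMX, the genes that read lower were 5 of 6 small-subunit genes (median −0.16), 2 of 4 box C/D genes (−0.19), 3 of 4 box H/ACA genes (−0.20), 8 of 11 large-subunit genes (−0.18), 5 of 5 metabolic genes (−0.24), 5 of 6 scaffold genes (−0.11) and 1 of 2 polymerase genes (0.18). Between 4 h and 1 h without TMX the large-subunit genes Ppan, Nop16, Rrs1, Nle1, Bop1 and Nop2 lay between −0.95 and −0.41, while Wdr12, of the PeBoW complex with Pes1 and Bop1, was at 0.07 and Ebna1bp2 at 0.11. Among the metabolic genes Tfb2m, a mitochondrial transcription factor, was at −0.70, spermidine synthase (Srm) at −0.28 and Cad, the multienzyme that starts pyrimidine synthesis, at −0.01.

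Within replicate 2 the 4 h array read lower than the TMX array for 28 of 38 genes (median −0.25, against 0.03 over all genes), with Gapdh differences of 3.47 and 1.74. Within replicate 1 it also read lower for 28 of 38 (median −0.11, against 0.01), with Gapdh differences of 1.42 and 1.04. Against the 1 h arrays without TMX, the medians were −0.26 in replicate 2 and −0.32 in replicate 1. The 4 h array had the larger Gapdh difference within both replicate numbers. Leaving out 1 array makes the groups unequal in replicate number, and the medians moved with it. Against TMX the median was −0.02 without 4 h replicate 1 and −0.37 without 4 h replicate 2, and 0.10 without TMX replicate 2 and −0.42 without TMX replicate 1. Against 1 h without TMX it was −0.09 without 4 h replicate 1 and −0.18 without 1 h replicate 2, and stayed below 0 in each case. Subtracting each array's median moved the median of all genes by 0.41 in the comparison of 4 h with 1 h without TMX, and the members' median then read 0.08. The difference of the 2 medians, −0.27, cannot change under this scaling, which shifts every gene of an array alike.

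**Figure D2:**
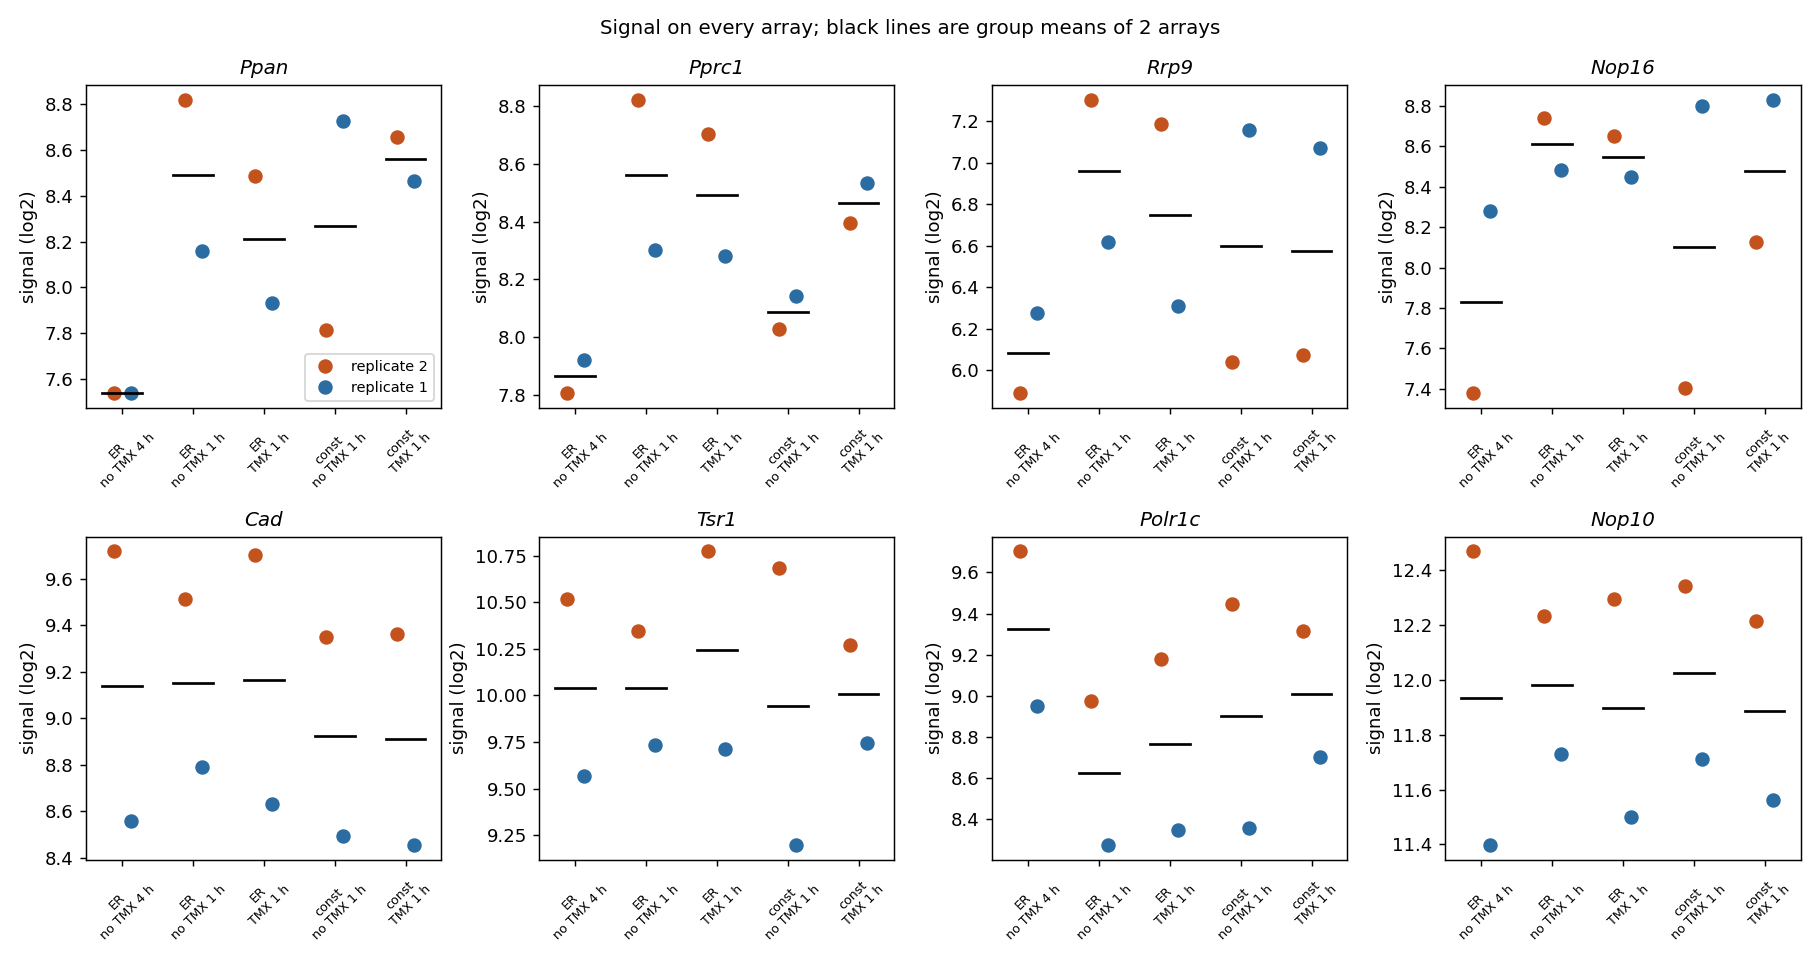
Log2 signal of 8 genes on every array, by group, with replicate 2 in orange, replicate 1 in blue and group means of 2 arrays as black lines. The upper row shows the 4 genes with the smallest p at 4 h against TMX, with the 4 h arrays at the lower end. The lower row shows the 4 genes with the smallest p between replicate numbers, with orange above blue in every group.

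After 1 h without TMX the genes were near the background. In HOXB4-ER cells, 24 of 38 were higher and 14 lower than with TMX (55.2% of all genes were higher), with a median of 0.08, against 0.07 over all genes. Both arrays without TMX lay above both with TMX for Ncl, Npm1, Imp4, Bop1 and Pes1, 5 genes against 19.4% of all genes, and below for 0, against 11.2%. The limma fit gave 0 members and 4.76% of all probe sets an unadjusted p under 0.05. The members with the smallest p were Ncl, the large-subunit factors Pes1 and Nop2, and the RNA acetyltransferase Nat10. Ncl differed by 0.49 ± 0.47, with 12.21 and 12.77 without TMX, against 12.01 and 12.00 with TMX. Pes1 read 9.88 and 10.01 without TMX, against 9.78 and 9.39 with TMX (0.36 ± 0.45). Nop2 read 9.35 and 9.02 without TMX, against 9.13 and 8.54 with TMX (0.36 ± 0.43). Nat10 read 8.33 and 8.11 without TMX, against 8.18 and 7.59 with TMX (0.34 ± 0.47). For Pes1, Nop2 and Nat10 the gap between the 2 TMX arrays was larger than the difference, and for Ncl the gap between the 2 arrays without TMX was. With each array's median subtracted, Pes1, Nop2 and Nat10 turned to −0.029, −0.030 and −0.050 and the count of 5 became 0, and with the mean over its probe sets Pes1 was at −0.26. The share of 19.4% of all genes is without this subtraction, so the count of 0 is not set against it. The median was −0.13 and 0.27 without replicate 2 and replicate 1 of the group without TMX, and 0.39 and −0.16 without replicate 2 and replicate 1 of the TMX group. Other probe sets of a member gave the same direction as the one used in 19 of 35 cases.

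In HOXB4const cells, where HOXB4 stays active, 25 of 38 genes were lower and 13 higher without TMX (47.9% of all genes were lower), with a median of −0.08, against 0.02 over all genes. Both arrays without TMX lay below both with TMX for Imp4 and Pprc1 (9.92% of all genes) and above for Rrp12, a small-subunit factor (14% of all genes). No member and 4.34% of probe sets had an unadjusted p under 0.05. The largest difference was that of Tfb2m at −1.01 ± 0.71, with 5.75 and 6.57 without TMX, against 6.15 and 8.18 with TMX. It came from the replicate 1 array with TMX, and without that array it was 0.01. The members' median was 0.03 without HOXB4const replicate 1 without TMX and 0.06 without replicate 2 with TMX. Imp4 read 8.50 and 8.52 without TMX, against 8.96 and 8.76 with TMX (−0.35 ± 0.39).

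The effect of 1 h without TMX was then compared between constructs through limma's interaction term. It was above 0 for 25 of 38 genes (51.2% of all genes), with a median of 0.19, against 0.02 over all genes, and 0 members passed, with 0 at an unadjusted p under 0.05 (3.77% of all probe sets). By role, 10 of 11 large-subunit genes (median 0.40), 4 of 6 scaffold genes (0.22), 2 of 4 box H/ACA genes (0.09), 3 of 6 small-subunit genes (0.03), 3 of 5 metabolic genes (0.02), 2 of 4 box C/D genes (−0.06) and 1 of 2 polymerase genes (0.16) lay above 0. The members with the smallest p were Tfb2m at 1.14 ± 1.00, Imp4 at 0.56 ± 0.56, Bop1 at 0.54 ± 0.62 and Nolc1, a chaperone of snoRNPs, at 0.52 ± 0.60. Bop1 read 8.67 and 8.55 without TMX, against 8.52 and 8.18 with TMX in HOXB4-ER cells, and 7.90 and 8.53 without TMX, against 8.60 and 8.37 with TMX in HOXB4const cells. Nolc1 read 9.59 and 9.50 without TMX, against 9.54 and 9.10 with TMX in HOXB4-ER cells, and 9.08 and 9.46 without TMX, against 9.41 and 9.72 with TMX in HOXB4const cells. The median depended on single arrays, being −0.16 without HOXB4-ER with TMX replicate 1, 0.49 without its replicate 2 and −0.06 without replicate 2 of HOXB4-ER without TMX. It was 0.03 and 0.05 without HOXB4const replicate 1 without TMX and replicate 2 with TMX.

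**Figure D3:**
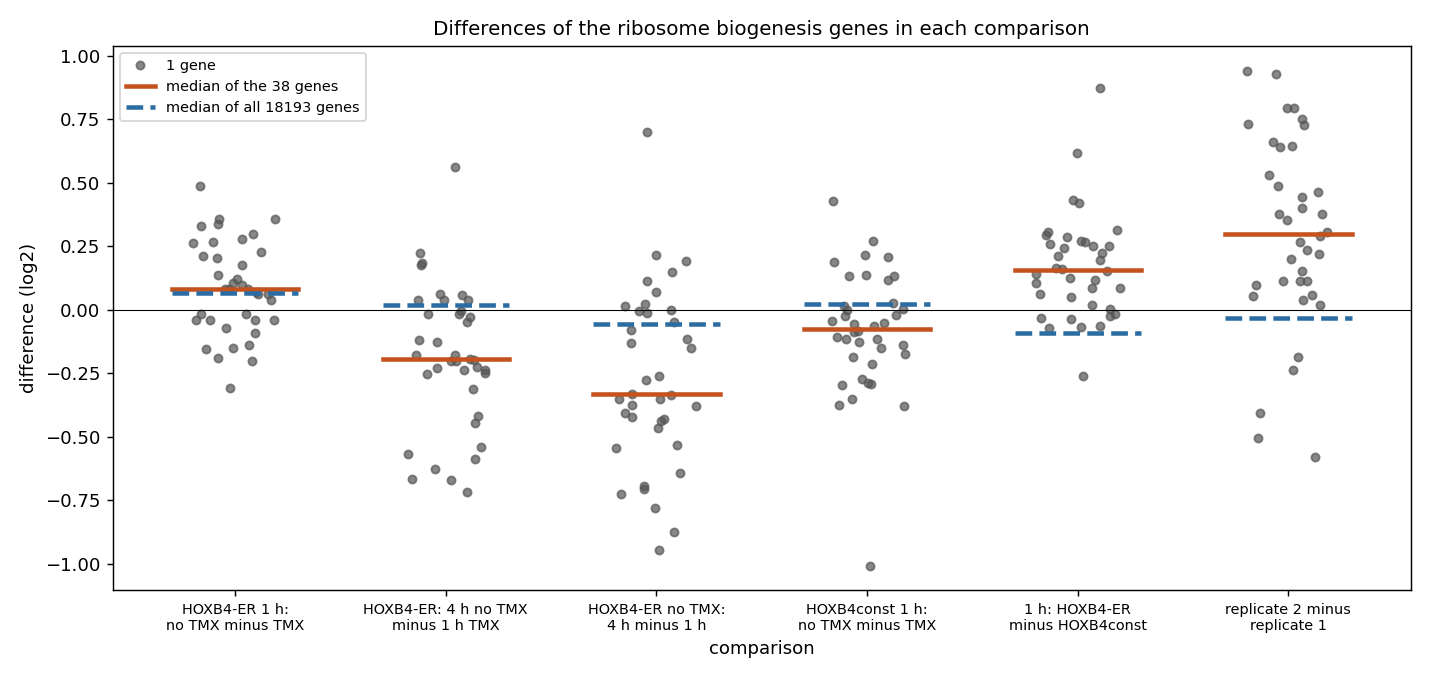
Differences of the 38 genes in 6 comparisons (log2), 1 grey point a gene, with the median of the 38 genes in orange and that of all 18193 genes as a dashed blue line. The orange line lies below the blue one at 4 h and above it for HOXB4-ER against HOXB4const and for replicate 2 against replicate 1, and the 2 lines nearly coincide at 1 h in HOXB4-ER cells.

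Between the constructs at 1 h, with both TMX conditions of each pooled (4 arrays against 4), 30 of 38 genes were higher in HOXB4-ER cells and 8 lower, where 41.6% of all genes were higher. The median was 0.16, against −0.09 over all genes. No gene of the 38 had 4 arrays outside the range of the other 4, where 1.35% of all genes did upward and 3.18% downward. The smallest adjusted p of a member was 0.781 (limma), and 0 members and 7.52% of probe sets had an unadjusted p under 0.05. By role, 6 of 6 nucleolar scaffold genes (median 0.07), 5 of 5 metabolic genes (0.25), 9 of 11 large-subunit genes (0.21), 3 of 4 box H/ACA genes (0.23), 4 of 6 small-subunit genes (0.11), 2 of 4 box C/D genes (0.02) and 1 of 2 polymerase genes were higher. Tfb2m read 7.68, 7.53, 7.62 and 7.32 in HOXB4-ER cells, against 5.75, 6.57, 6.15 and 8.18 in HOXB4const cells (0.88 ± 0.50). Rrs1 read 10.45, 10.00, 10.55 and 9.70 in HOXB4-ER cells, against 9.95, 9.03, 9.44 and 9.80 in HOXB4const cells (0.62 ± 0.37). The constructs overlapped for both, for Tfb2m through 1 bright HOXB4const array. The helicase Ddx18 read 9.22, 9.09, 9.33 and 8.81 in HOXB4-ER cells, against 8.75, 8.61, 8.50 and 8.86 in HOXB4const cells (0.43 ± 0.30). Nle1, a large-subunit factor, read 7.29, 6.52, 7.54 and 6.35 in HOXB4-ER cells, against 6.31, 6.52, 6.80 and 6.41 in HOXB4const cells (0.42 ± 0.40), where the HOXB4-ER values were split by replicate number. The median was 0.05 and 0.01 without replicate 2 of HOXB4-ER cells without and with TMX, and 0.30 without replicate 1 with TMX. Of the other measures, 6 of 7 granulocyte markers (median 1.84, up to 4.02) and 5 of 6 dendritic markers (median 1.22) were higher in HOXB4-ER cells. So were 3 of 4 erythroid (0.42) and 5 of 6 LSK markers (0.27). Lower were 4 of 6 monocyte and macrophage markers (−0.30) and 5 of 7 lymphoid markers (−0.10). Also lower were 3 of 5 mast and basophil markers (−0.19) and 4 of 6 megakaryocyte markers (−0.13). The granulocyte median deviation was 2.90 and 2.48 on replicate 1 HOXB4-ER arrays without and with TMX, and −0.55 and −1.56 on replicate 2. Ltf, Camp, S100a9 and Zbtb46 were dim. The Gapdh 3′ minus 5′ difference averaged 1.24 and 1.39 in HOXB4-ER cells without and with TMX, against 2.63 and 1.83 in HOXB4const cells. The part of these measures in the difference was not tested.

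Of the comparisons made, that of the replicate numbers had the most members on 1 side. It was taken over all 5 groups with the group as a term in the fit. Arrays of 1 number may share a population, so the p-values of this fit count arrays and not independent replicates. On replicate 2 arrays 33 of 38 genes were higher and 5 lower, where 47.8% of all genes were higher, with a median of 0.30, against −0.03 over all genes. The figures over all genes were not matched for brightness. In 15 genes replicate 2 was higher in all 5 groups (10.9% of all genes) and in 0 lower in all 5 (8.98% of all genes). All 5 replicate 2 arrays lay above all 5 replicate 1 arrays for 13 genes (4.81% of all genes) and below for 0 (3.11% of all genes). Those 13 were Gnl3, Mybbp1a, Fbl, Nop56, Nop10, Nop14, Tsr1, Wdr12, Ebna1bp2, Wdr74, Polr1c, Srm and Cad. An unadjusted p under 0.05 was reached by 10 members, all higher, where 4.49% of genes reached it upward. None passed after adjustment, the smallest value being 0.207 for Cad. With limma's variance trend against mean level, 10 members and 6.06% of all probe sets passed.

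Cad read 9.72, 9.51, 9.70, 9.35 and 9.36 on the replicate 2 arrays, against 8.56, 8.79, 8.63, 8.50 and 8.46 on the replicate 1 arrays, in the order of the groups given above. The difference was 0.94 ± 0.22. The 2 sets of arrays did not overlap. Tsr1, a late factor of the small subunit with CACGTG in its promoter window, read 10.52, 10.35, 10.77, 10.69 and 10.27, against 9.57, 9.73, 9.71, 9.20 and 9.74 (0.93 ± 0.25, adjusted p = 0.247 in limma). Polr1c read 9.70, 8.98, 9.18, 9.45 and 9.31, against 8.95, 8.28, 8.35, 8.36 and 8.70 (0.80 ± 0.22, adjusted p = 0.249 in limma). Polr1c was brightest at 4 h in both replicates. Nop10, the small structural protein of box H/ACA snoRNPs, read 12.47, 12.23, 12.29, 12.34 and 12.21, against 11.40, 11.73, 11.50, 11.71 and 11.56 (0.73 ± 0.22, adjusted p = 0.276 in limma). Every role held genes of this kind, with 6 of 6 small-subunit genes, 4 of 4 box H/ACA genes, 10 of 11 large-subunit genes and 5 of 6 scaffold genes higher.

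**Figure D4:**
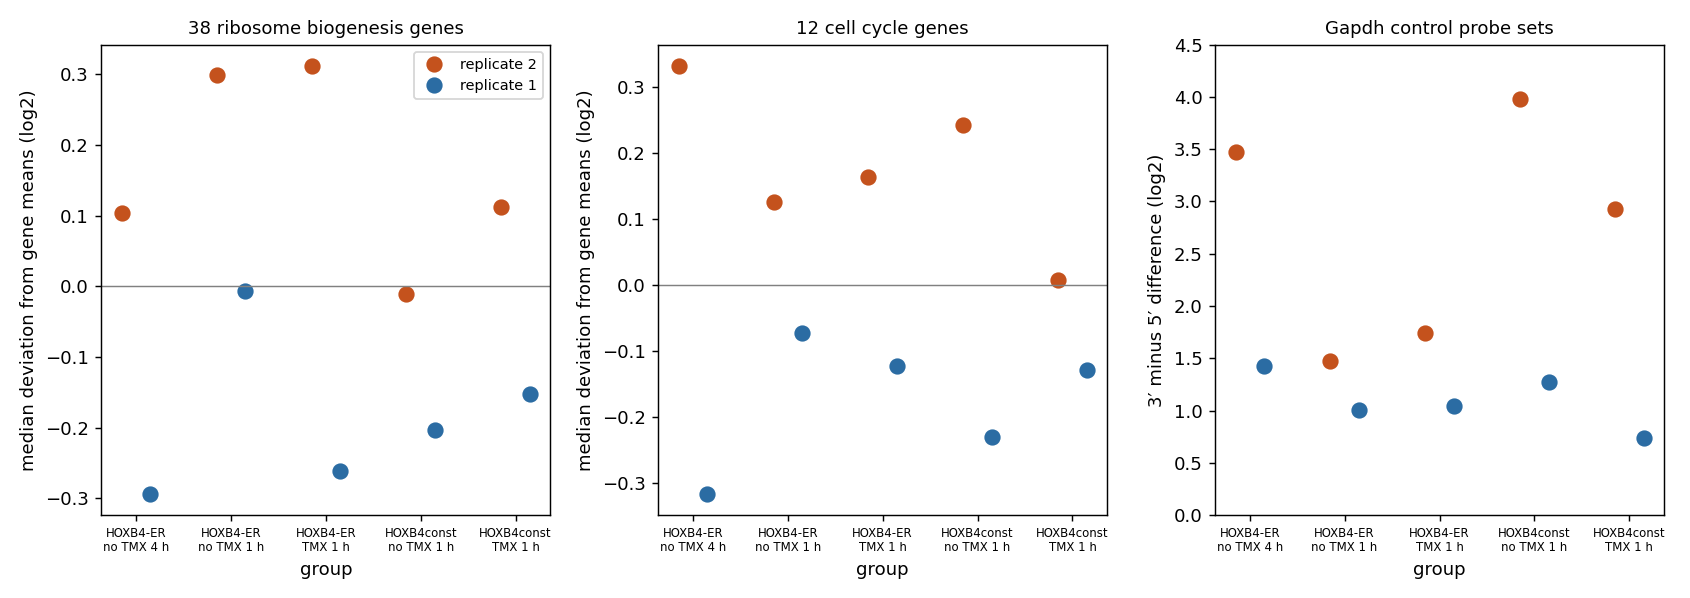
Median deviation of the 38 genes and of 12 cell cycle genes from their means over 10 arrays (log2), and the Gapdh 3′ minus 5′ difference (log2), on each array by group, with replicate 2 in orange and replicate 1 in blue. Orange lies above blue in every group in all 3 panels, and the HOXB4-ER groups at 1 h have the 2 highest values of the first panel and the 2 lowest orange values of the third.

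Several other measures moved with the replicate number, and their part in the difference was not tested. Of 12 cell cycle genes, 9 were higher on replicate 2 arrays, with a median of 0.35. Of the LSK markers, 4 of 6 were higher (median 0.58). All 6 monocyte and macrophage markers were lower, with a median of −2.67, and their median deviation per array ran from −2.08 to −0.69 on replicate 2 and from 1.13 to 1.79 on replicate 1 arrays. Of the dendritic markers 6 of 6 were lower (median −1.69) and of the lymphoid markers 6 of 7 (median −1.82). Among these, Zbtb46, Rag1, Cd4, Cd3e and Cd79a were dim, with levels below that of the median probe set. All 7 granulocyte markers were lower too (median −2.31), with deviations of −1.71 to −0.55 on replicate 2 and −0.96 to 2.90 on replicate 1 arrays. The granulocyte markers were high on replicate 1 in the HOXB4-ER groups alone, at 2.44 to 2.90, against −0.96 and −0.80 in HOXB4const cells.

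The replicate difference was split by construct after the data were seen. In HOXB4-ER cells 30 of 38 genes were higher on replicate 2 in all 3 groups (19.8% of all genes), and the median difference was 0.41, against −0.02 over all genes. In HOXB4const cells 15 of 38 were higher in both groups (26.2% of all genes), and the median was 0.14, with that of all genes near 0. Nolc1, Dkc1 and Nat10 were higher on replicate 2 in the 3 HOXB4-ER groups and lower in both HOXB4const groups (1.84% of all genes), and 0 members did the reverse (2.49% of all genes). In limma's test of the difference between constructs, 0 members and 0 probe sets passed, and 0 members and 2253 probe sets had an unadjusted p under 0.05. The genes that differed most were Rrp9 (0.39 in HOXB4-ER cells, −1.06 in HOXB4const cells), Tfb2m (−0.02 and −1.42) and Polr1b (0.13 and −1.21). For Polr1b the HOXB4const arrays read 6.25 and 6.32 on replicate 2, against 7.52 and 7.49 on replicate 1. Cad, Tsr1, Polr1c, Ddx21, Nop56 and Nop10 had differences of 0.64 or more in both constructs. For Ddx21 the HOXB4const difference came from 1 group, with 9.97 and 8.28 without TMX, against 8.97 and 9.04 with TMX.

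**Figure D5:**
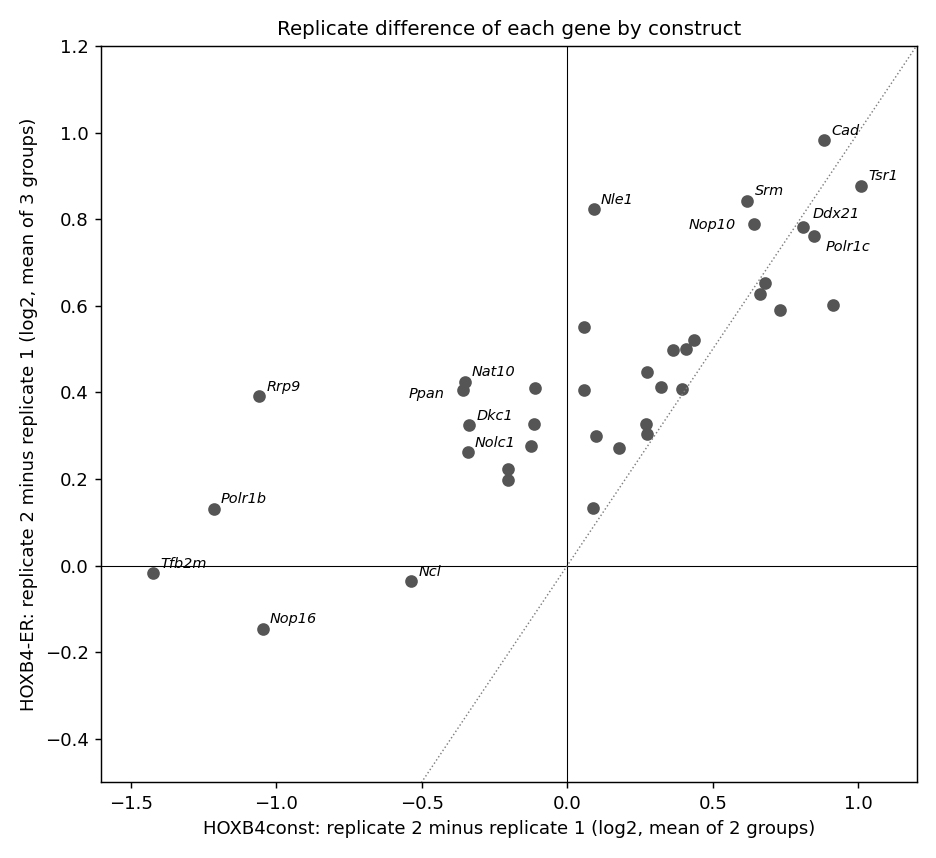
Replicate 2 minus replicate 1 of each of the 38 genes (log2), as the mean of the 3 HOXB4-ER groups on the vertical and of the 2 HOXB4const groups on the horizontal axis, with a dotted line of equal values. Cad and Tsr1 lie at the upper right, while Tfb2m, Polr1b, Rrp9 and Nop16 lie far left, lower on replicate 2 in HOXB4const cells.

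Probe sets of the same gene did not always share a direction. Of 35 further probe sets, 22 had the direction of the one used between replicate numbers. Ncl was measured by 5, which differed by −0.24 (the one used), −1.17, 0.95, 0.03 and 0.11 between replicate 2 and replicate 1. Those of Dkc1 differed by 0.06 (the one used), 0.16 and −1.13, and those of Nolc1 by 0.02, 0.49 and −0.97. Nop10, Tsr1 and Cad kept the direction with a second bright probe set, at 0.39, 0.41 and 0.62, while a dim probe set of Cad was at −0.95 and the second of Polr1c at 0.03. The second probe set of Mybbp1a was at −0.18, that of Fbl at 0.02 and that of Nop56 at 0.24. Those of Wdr12 were at 0.21 and −0.33, and those of Ebna1bp2 at 0.31 and 0.08. Between 4 h and 1 h without TMX, 20 of 35 agreed in direction. The further Ncl probe sets were at −1.16, −0.02, 0.36 and −1.52, and the second of Nop16, a dim one, at −0.79. Of other genes named as lower at 4 h, the second probe set of Rrs1 was at 0.02, those of Imp4 at 0.02 and 1.73, and those of Dkc1 at 0.01 and −1.24. Ppan, Pprc1 and Rrp9 have 1 probe set each.

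Beyond the 38, 137 of 145 further genes of ribosome production and nucleotide or polyamine supply were measured, in 6 lists drawn from general knowledge. None passed in any comparison. Between 4 h and 1 h without TMX, 85 were lower and 52 higher, with a median of −0.13, where 53.5% of all genes were lower. At 4 h against TMX, 88 were lower and 49 higher (median −0.11), where 48.3% of all genes were lower. By list, 9 of 9 snoRNP assembly genes (median −0.09), 29 of 46 large-subunit genes (−0.11), 25 of 44 small-subunit genes (−0.05), 6 of 10 polymerase I genes (−0.23), 11 of 16 exosome and processing genes (−0.13) and 8 of 12 polyamine and nucleotide genes (−0.29) were lower. After 1 h without TMX in HOXB4-ER cells, 73 were higher and 64 lower (median 0.03, with 55.2% of all genes higher). In HOXB4const cells 97 were lower and 40 higher without TMX (median −0.12, with 47.9% of all genes lower). Between constructs 101 were higher in HOXB4-ER cells and 36 lower (median 0.13, with 41.6% of all genes higher). On replicate 2 arrays 107 were higher and 30 lower (median 0.36, with 47.8% of all genes higher). At an unadjusted p under 0.05, 31 were higher and 2 lower, where 4.49% of all genes were higher and 7.57% lower, and none passed after adjustment. The differences were led by Nol8 (1.24 ± 0.48) and the polymerase I termination factor Ttf1 (1.12 ± 0.47), while Rsl24d1 was at −1.35 ± 0.43.

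Of the network of MYC partners and antagonists, 12 of 12 genes were measured and 0 passed. Mxd1, a MAX-binding repressor that opposes MYC, was the member of the network furthest from 0 at 4 h, at 1.92 ± 0.44 from 1 h without TMX (limma adjusted p = 0.492) and 2.16 ± 0.44 from TMX (limma adjusted p = 0.932). The network as a whole was split at 4 h, with 5 genes higher and 7 lower against 1 h without TMX (median −0.06) and 6 and 6 against TMX (median 0.04). Between replicate numbers, 3 of 12 genes were higher on replicate 2, with a median of −0.18. The list joins MYC genes with their antagonists, so its median does not measure the activity of MYC, which was not tested.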

How the data were processed

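Messenger RNA of 10 samples was measured on Affymetrix Mouse Genome 430 2.0 arrays, after linear T7 amplification per the labels' protocols. The deposited log2 values hold 1 signal a probe set. GCOS and RMA are named, with no roles, in the submitters' processing notes. Back on the linear scale, the mean without 2% at each end was 100.0 on every array, so values were used as log2 GCOS signals and not normalized again. Detection calls were not used here, and the number of arrays limits the precision.

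The file lists 45101 probe sets, of which 64 controls were dropped. Of the others, 34945 have 1 symbol in the platform annotation, 932 several and 9160 none listed here. Differences were fitted with limma 3.58.1 (R 4.3.3) on 45037 probe sets, with 1 mean for each of 5 groups (5 residual and 2.21 prior degrees of freedom), no trend, two-sided, Benjamini-Hochberg adjusted, threshold 0.05. Replicate numbers were tested in a fit of group plus number (4 residual and 1.82 prior degrees of freedom). Errors are limma's standard errors, or SDs where stated. The fit was checked on simulated data with independent noise and planted changes far larger than the differences seen here. That check does not cover differences of the reported size.

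The 39 genes, the further lists and the rules were chosen with earlier results of these data known. Values on every array are given for Ncl, Npm1 and Fbl and for the 4 members with the smallest p in each comparison. Others were picked after their values were seen. Of further lists, at most the 2 highest and 2 lowest genes of a comparison are named.

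Same-numbered arrays were alike. Replicate differences correlated between groups in 10 of 10 pairs (0.210 to 0.527, over 22519 brighter probe sets), and the labels say populations were divided between treatments, so the numbers were taken to pair samples. That pairing entered the replicate block and the differences within a replicate number. Errors and adjusted p-values printed for the group comparisons come from the fit without it. Alternatives covered scaling, probe set choice, filters, the replicate block and leaving out each array.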

Additional observations from a re-analysis of the deposited data

Results flagged for a closer look

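In 4 genes an effect ran one way in HOXB4-ER cells and the other way in HOXB4const cells. None of these differences passed limma's interaction test after Benjamini-Hochberg adjustment, where the adjusted p was 1.00 for each. Imp4 was higher without TMX at 1 h on both HOXB4-ER arrays and lower on both HOXB4const arrays, a difference of effects of 0.56 ± 0.56 (SE). Opposite changes without overlap of this kind were found in 3.28% of all genes. Imp4 was the only member of this kind, near that share, so it is not read as a result about these genes. With the mean over the 3 probe sets of Imp4 the difference was −0.39.

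Nolc1, Dkc1 and Nat10 were higher on replicate 2 in all 3 HOXB4-ER groups and lower on it in both HOXB4const groups, as were 1.84% of all genes. The replicate difference in HOXB4-ER minus that in HOXB4const groups was 0.60 ± 0.46 for Nolc1, 0.66 ± 0.45 for Dkc1 and 0.78 ± 0.49 for Nat10 (SE). Over all groups, the further probe sets of Nolc1 differed by 0.49 and −0.97 between replicate 2 and replicate 1. Those of Dkc1 differed by 0.16 and −1.13, and a dim one of Nat10 by 0.63. Nat10 read 8.33 and 8.11, 8.18 and 7.59, and 7.99 and 7.52 on the replicate 2 and replicate 1 arrays of the HOXB4-ER groups, and 7.74 and 8.38, and 7.84 and 7.90 on those of the HOXB4const groups.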

How the results depend on the processing

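The count of members past the threshold was 0 under 131 of 133 alternatives, leave-one-out fits and the replicate block (0 members and 0 probe sets in the group comparisons) included. The exceptions were both between replicate numbers. Under limma's variance trend 10 members passed, where 6.06% of all probe sets did. Among brighter probe sets alone 2 passed (Cad and Polr1c). That count is not set against a background share here, so it is not read as a result about these genes. Without the group term, that is with no replicate block, 343 probe sets and 0 members passed there.

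With array median centring the members' medians were −0.30 at 1 h in HOXB4-ER cells, −0.38 in HOXB4const cells, 0.081 at 4 h against 1 h, 0.54 between constructs and 0.62 between replicate numbers, and the replicate block with centring gave the same values for the first 4. Centring moved the median of all genes alike. It left 0, 1 and 3 genes without overlap at 1 h, at 4 h against 1 h and at 4 h against TMX. The mean over probe sets made the last 16. Counts without overlap in this section carry no background share, so they are not read as results about these genes. Leaving out 1 array gave medians of −0.16 to 0.39 at 1 h in HOXB4-ER cells, −0.42 to 0.10 at 4 h against TMX, −0.48 to −0.09 at 4 h against 1 h, −0.19 to 0.06 in HOXB4const cells, −0.16 to 0.49 for the interaction, 0.01 to 0.30 between constructs and 0.26 to 0.35 between replicate numbers. Counts without overlap then ran from 5 to 28, 17 to 28 and 10 to 28 in the 3 comparisons named, since 1 array a group overlaps less readily. Of the single genes, Nat10 (−0.050), Nop2 (−0.030) and Pes1 (−0.029) turned direction at 1 h with centring, with or without the block, as did Pes1 (−0.26) at 1 h and Imp4 (−0.39) in the interaction with the mean over probe sets. Tfb2m in HOXB4const cells ran from −2.02 to 0.0052 over the leave-one-out fits, the last without the TMX replicate 1 array. The cause was not tested.

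With 2 arrays a group, no difference of the size seen here passed. The array does not resolve transcripts of 1 gene, and the probe set chosen decides some directions.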
